A study of Mus musculus with 8 samples.

Results

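Small nucleolar RNAs (snoRNAs) and the host genes that carry them were followed in mouse myoblasts after silencing of the long non-coding RNA Pvt1. Members were the probes, other than control spots, whose gene name began with Snora, Snord, Scarna or Snhg followed by a digit. These were 37 of 56605 probes and 28 of 37074 gene names on the array. They comprised 13 snoRNA probes, each with a gene name of its own (8 Snora, 3 Snord and 2 Scarna), and 24 probes for 15 Snhg genes. All cells were proliferating C2C12, an established mouse myoblast line, at passage 10. The 4 Pvt1-silenced cultures had received LNA GapmeRs against Pvt1, of which the labels name a pair, with Lipofectamine 2000. The 4 control cultures had received negative control GapmeRs with the same reagent. A GapmeR is an antisense oligonucleotide that directs cleavage of the RNA it pairs with. The labels do not say whether each culture received both GapmeRs against Pvt1, so no value can be tied to either of them, and the line is the only one in the series. RNA from each culture was labelled with Cy3 and hybridised to its own one-colour Agilent array.

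SnoRNAs are short, stable nuclear RNAs that work inside protein particles (snoRNPs) and guide the chemical modification of other RNAs. H/ACA snoRNAs (Snora genes) guide the conversion of uridine to pseudouridine, C/D snoRNAs (Snord genes) guide methylation of the ribose, and the related Scarna RNAs act in Cajal bodies on the RNAs of the spliceosome. In mammals most of them lie in introns of a host gene and are released by splicing, debranching of the intron and trimming of both ends, without a poly(A) tail. Host genes are either ordinary protein-coding genes, often for ribosomal proteins or translation factors, or Snhg genes, whose spliced RNA has no known long reading frame and is often degraded by nonsense-mediated decay. Proliferating myoblasts make many ribosomes, and most ribosomal RNA modification depends on these guides. According to the labels, the RNA was labelled with the Low Input Quick Amp kit, which copies RNA from its poly(A) tail. Whether a snoRNA probe read the mature snoRNA, its precursor or an unspliced host transcript was not tested.

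Between 58.8% and 62.5% of spots that were not controls were positive and significant on the other 7 arrays, and 51.6% on the array of silenced replicate 4. With spots that were not positive and significant left out, that array gave the lowest of the silenced values for 27 of the 30 tested members. For 2 further members it gave no value. With those spots kept, the array was not lowest for some members, among them Snora73a (13.08, other silenced arrays 12.89 to 13.21) and Snhg18 (10.28, others 10.01 to 10.73). It stayed lowest for others, among them Snord33 (7.36, others 7.45 to 7.58) and Scarna6 (5.14, others 6.05 to 6.39). The cause of the low rank was not tested. Pvt1 itself had a normalised signal of 9.86 ± 0.30 on the log2 scale (SD, n = 4) in control and 7.004 ± 0.63 (SD, n = 4) in silenced cultures, a change of -2.86 (limma adjusted p 0.000682). Among the myoblast markers, Myod1, Des and Cdh15 were well above background on all 8 arrays and Myf5 on none. The first 3 fell in silenced cultures, with changes of -1.95, -1.35 and -0.86 on the log2 scale (limma adjusted p 0.0013, 0.0037 and 0.014), while Myf5 changed by 0.94 (limma adjusted p 0.053). The satellite cell marker Pax7 was well above background on all arrays and changed by 0.02 (limma adjusted p 0.972), and of the differentiation markers Myog changed by 0.13 (limma adjusted p 0.917), although control replicate 3 gave 4.96 where its 3 companions gave 8.17 to 8.41 and the silenced arrays 6.83 to 7.89, and Myh3 by -0.58 (limma adjusted p 0.278). Of 2 hepatocyte markers, Apoa1 was not well above background on any array, while Alb was so on none of the control arrays and on all 4 silenced arrays, with log2 signals of 8.38 to 10.25 there. The part of these markers in the results below was not tested. Of 28649 probes tested, 4.79% were called higher and 18.4% lower in silenced cultures at a limma adjusted p under 0.05, together 23.2%. The median change of all tested probes was -0.19 on the log2 scale. With cyclic loess in place of quantile normalisation the median change was 0.02, with 18.9% of probes called higher and 18.4% lower. With a shift to the 75th percentile of each array it was 0.16, with 7075 probes higher and 4365 lower. In bulk RNA, fewer cells that express an RNA and less of that RNA per cell cannot be told apart.

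All probes were 60 bases long. Of the 4 members called in the comparison, Snord33, Snhg18 and the 5′ probe of Snhg7 are shown here, with others whose position on the RNA bears on what they can detect, in the sense of the RNA, 5′ to 3′, with mm9 positions from the scanner files. The probe of Snord33, the one called snoRNA, covered bases 14 to 73 of an RNA of 82 bases (NR_001277, chr7:52382243-52382302, minus strand).
Snord33: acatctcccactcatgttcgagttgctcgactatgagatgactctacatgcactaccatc
The next 3 probes reached the last base of their RNA, and so covered its mature 3′ end. Capitals mark the ACA box that lies 3 bases before the end of H/ACA RNAs, or the CTGA of box D near the end of C/D RNAs. Of all 60-base probes on the array, 2.03% had ACA at that place and 1.93% had CTGA within their last 6 bases. The probe of Snora73a lay at chr4:131908690-131908749, minus strand, that of Scarna13 at chr12:106269285-106269344, minus strand, and that of Snord17 at chr2:144091718-144091777, minus strand.
Snora73a: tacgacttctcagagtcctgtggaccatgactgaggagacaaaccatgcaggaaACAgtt
Scarna13: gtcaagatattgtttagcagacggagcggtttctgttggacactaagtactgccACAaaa
Snord17: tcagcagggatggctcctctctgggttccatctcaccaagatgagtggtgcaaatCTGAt
Among host genes, Snhg18 was read at chr15:32170363-32170422, minus strand, and Snhg7 by a pair of probes 406 bases apart, at chr2:26492756-26492815 for the 3′ probe and chr2:26493162-26493221 for the 5′ probe, both on the minus strand. The 3′ probe of Snhg7 was designed on a RefSeq transcript (NR_024068) and its 5′ probe on a cDNA (BC046478). Snhg7os, which lies beside Snhg7 on the opposite strand, and Snhg10 are shown because their probes held a polyadenylation signal (capitals), a mark of the 3′ end of a polyadenylated RNA. They lay at chr2:26501405-26501464, plus strand, and chr12:106268866-106268925, minus strand.
Snhg18: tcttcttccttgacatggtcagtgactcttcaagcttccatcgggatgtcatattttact
Snhg7, 3′ probe: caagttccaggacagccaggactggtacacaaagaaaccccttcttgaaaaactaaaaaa
Snhg7, 5′ probe: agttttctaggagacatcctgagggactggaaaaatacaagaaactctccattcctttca
Snhg7os: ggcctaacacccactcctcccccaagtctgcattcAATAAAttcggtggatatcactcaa
Snhg10: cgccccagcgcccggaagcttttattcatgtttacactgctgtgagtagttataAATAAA

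All 13 snoRNA probes passed the filter of 3 values in each group. In the comparison of silenced with control cultures, 1 of them was called lower and none higher, where 18.4% and 4.79% of all tested probes were called. At an unadjusted p under 0.05 the count was 4 of 13, where 36.3% of all tested probes passed. All 3 Snord probes had a change below the median of all probes, and all 8 Snora probes one above it, 7 of them above 0. For Snord7 the distance was small (-0.22 against -0.19), and with cyclic loess its change of 0.15 lay above the median of 0.02. The median change was -0.83 over the Snord probes, from -1.19 to -0.22, and 0.77 over the Snora probes, from -0.003 to 1.22. Control replicate 3 was the lowest control array for 6 of the 8 Snora probes and 9 of the 13 snoRNA probes, against 8099 of 28649 tested probes. These are descriptions of few probes, and the difference between the families was not tested. Only 5 of the 13 snoRNA probes were well above background on all 8 arrays, and 8 were so when silenced replicate 4 was left out.

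**Figure D1:**
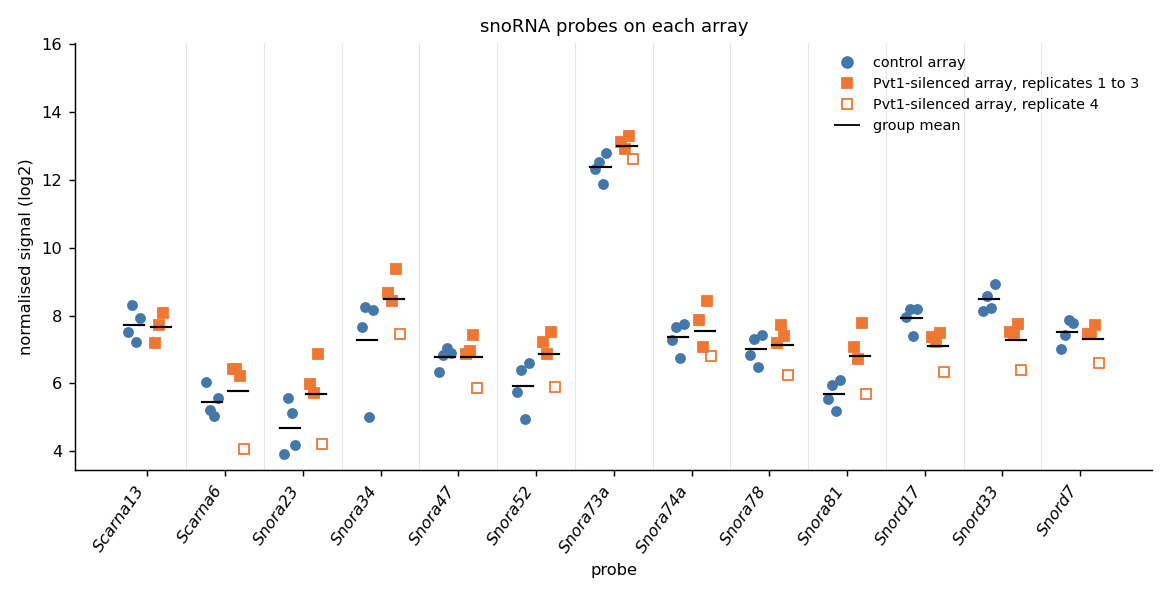
Normalised log2 signal of the 13 snoRNA probes on each of 8 arrays, with control arrays as circles, silenced arrays as squares and group means as bars. The open square of silenced replicate 4 lies below the other silenced arrays for 12 probes and is missing for Scarna13, and for Snord33 all silenced values lie below all control values.

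Among the C/D members, Snord33 fell after silencing. It is a methylation guide encoded in an intron of the ribosomal protein gene Rpl13a and belongs to a set of snoRNAs known for a part in the response of cells to lipid overload. Its log2 signal was 8.14, 8.59, 8.24 and 8.94 in control replicates 1 to 4 and 7.52, 7.49, 7.74 and 6.40 in silenced replicates 1 to 4. The silenced values all lay below the lowest control value, as was the case in one or the other direction for 28.5% of the probes with 8 values. The change was -1.19 (SE 0.32, limma adjusted p 0.026). Without silenced replicate 4 it was -0.90 and was still called. The call was lost without control replicate 2 (-1.15) or control replicate 4 (-1.04). The arrays lay in 2 rows of a slide, with 3 controls and 1 silenced array in the first row and the reverse in the second. Within the first row the difference was -0.81 and within the second -1.73, and with the row as a term the call was lost. It was also lost with the methods' t-test after either adjustment.

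Snord17, an unusually long C/D RNA encoded in an intron of the sorting nexin gene Snx5, had control values of 7.95, 8.19, 7.39 and 8.19 and silenced values of 7.36, 7.23, 7.49 and 6.33. The groups overlapped through control replicate 3 and silenced replicate 3. The change was -0.83 (SE 0.30, limma adjusted p 0.076). Without control replicate 3 it was -1.01 and was called. Snord7, a methylation guide, changed by -0.22 (SE 0.29), close to the median of all probes, from 7.52 ± 0.39 to 7.31 ± 0.49 (SD, n = 4 each).

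Among the H/ACA members, Snora73a had a higher mean in silenced cultures and was well above background on all 8 arrays. It belongs to the snoRNAs that are needed for cleavage of the ribosomal RNA precursor rather than for modification. Its log2 signal was 12.34, 12.52, 11.90 and 12.79 in control replicates 1 to 4 and 13.13, 12.91, 13.30 and 12.62 in silenced replicates 1 to 4. Only control replicate 4 and silenced replicate 4 broke the separation. The change was 0.61 (SE 0.25, limma adjusted p 0.111), or 0.80 relative to the median of all probes. It was called higher in 5 of 18 alternatives, among them cyclic loess (0.78, limma adjusted p 0.014) and the fit without silenced replicate 4 (0.73, limma adjusted p 0.049). The groups did not overlap when spots that were not positive and significant were kept. Silenced replicate 4 then gave 13.08 against a highest control value of 12.64.

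Snora74a, encoded in Snhg4, had a change of 0.18 (SE 0.38), from 7.36 ± 0.45 to 7.54 ± 0.75 (SD, n = 4 each). Snora78, which lies in Snhg9 where the gene Rps2 overlaps on the opposite strand, had a change of 0.12 (SE 0.35). Snora47 had one of -0.003 (SE 0.33). For these 3 probes the groups overlapped and the sign of the change was not stable when single arrays were left out. Snora34, encoded in Kansl2, had control values of 7.67, 8.25, 5.01 and 8.17 and silenced values of 8.68, 8.44, 9.39 and 7.46. Control replicate 3 stood far below the other controls, and the change of 1.22 carried an SE of 0.70 (limma adjusted p 0.241). Without that array it was 0.46 (SE 0.41).

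The other 3 H/ACA probes were dim, and they are named here after their values had been seen. Snora81, encoded in the translation factor gene Eif4a2, was not well above background on any control array and was so on 3 of 4 silenced arrays. Its control values were 5.54, 5.95, 5.19 and 6.12 and its silenced values 7.08, 6.72, 7.78 and 5.68. Each control array was given its lowest signal well above background, or the probe's own signal where that was higher. Against these values the mean of the silenced arrays was at least 1.66-fold higher. The fitted change of 1.12 (SE 0.41, limma adjusted p 0.080) was not called, and silenced replicate 4 lay within the range of the controls. With spots that were not positive and significant kept, that array gave 6.62 against controls of 5.00 to 5.80. Snora52, encoded in the ribosomal protein gene Rplp2, had 2 control and 3 silenced arrays well above background and a change of 0.94 (SE 0.43, limma adjusted p 0.149). Snora23, encoded in the nuclear import gene Ipo7, was well above background on 1 silenced array and on no control array, with a change of 1.00 (SE 0.56, limma adjusted p 0.226). For both of these, too, the value of silenced replicate 4 lay within the range of the controls. With those spots kept it was 6.84 for Snora52, above controls of 4.79 to 6.29. For Snora23 it was 5.25, within controls of 3.90 to 5.31.

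Of the Scarna RNAs, Scarna13 had control values of 7.51, 8.31, 7.21 and 7.92 and silenced values of 7.20, 7.72 and 8.09 in replicates 1 to 3. Its spot was not positive and significant on the array of silenced replicate 4 and was left out there. The change was -0.07 (SE 0.33), and -0.92 (SE 0.90) when spots that were not positive and significant were kept. Scarna6, named after its values had been seen, had silenced values of 6.41, 6.44, 6.22 and 4.07 and control values of 5.04 to 6.03. Its change was 0.32 (SE 0.51) with all arrays and 0.89 without silenced replicate 4, when it was called higher (limma adjusted p 0.031).

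The calls depended on the setting. With cyclic loess, 4 snoRNA probes were called higher (Snora81, 1.41; Snora23, 1.27; Snora52, 1.25; Snora73a, 0.78) and Snord33 lower (-0.82), against backgrounds of 18.9% and 18.4%. Without silenced replicate 4, the same 4 probes and Scarna6 were called higher, against a background of 12% (3563 of 29663 probes), and Snord33 lower, against 17.8%. The sizes of the changes under the 3 settings are shown in the plot of changes by setting.

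Of the 24 Snhg probes, 17 passed the filter, for all 15 genes, and 15 of these were well above background on all 8 arrays. The 7 that did not pass (2 for Snhg11 and 1 each for Snhg8, Snhg9, Snhg12, Snhg14 and Snhg20) were well above background on none of the arrays. Among the 17, 1 was called higher and 2 lower, so that the share called was no larger than the 23.2% of all tested probes. The median change was -0.01, from -1.36 to 1.06, and 8 changes were positive.

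**Figure D2:**
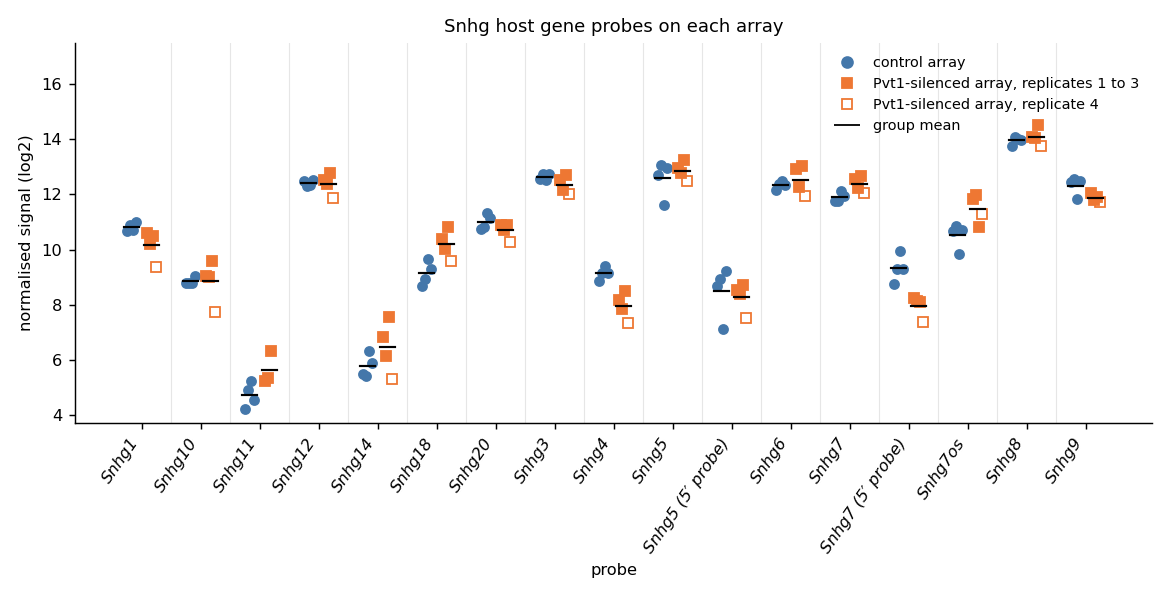
Normalised log2 signal of the 17 tested Snhg probes on each of 8 arrays, with control arrays as circles, silenced arrays as squares (replicate 4 open) and group means as bars. The groups do not overlap for Snhg1, Snhg4 and the 5′ probe of Snhg7, which are lower on silenced arrays, and Snhg18 overlaps only through silenced replicate 4 and control replicate 3.

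Snhg18 rose after silencing. It is a non-coding host gene whose log2 signal was 8.69, 8.96, 9.65 and 9.31 in control replicates 1 to 4 and 10.40, 10.03, 10.83 and 9.59 in silenced replicates 1 to 4. Silenced replicate 4 lay below control replicate 3 and above the other controls. The change was 1.06 (SE 0.31, limma adjusted p 0.035), or 1.26 relative to the median of all probes, and the difference was 1.30 within the first row of the slide and 0.85 within the second. Its sign held under all alternatives, from 0.86 to 1.34. With spots that were not positive and significant kept, silenced replicate 4 lay above all controls (10.28 against 8.74 to 9.52). The call was lost without control replicate 1 (0.91), 2 (1.00) or 4 (1.12), without silenced replicate 1 (1.00), 2 (1.13) or 3 (0.86), with the slide row as a term (1.08), and with the methods' t-test after either adjustment. A probe for a non-coding transcript of the array design that began 57 bases downstream on the same strand had a change of 0.86 (SE 0.36, limma adjusted p 0.112).

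Snhg4 fell. It carries Snora74a, and its control values were 8.86, 9.16, 9.41 and 9.15 against silenced values of 8.18, 7.86, 8.49 and 7.35. No silenced value reached a control value. The change was -1.17 (SE 0.27, limma adjusted p 0.013), and the difference was -0.96 within the first row of the slide and -1.25 within the second. Its sign held in all 17 alternatives that gave a value, from -1.35 to -0.84, and the call in 14 of them. The call was lost with the slide row as a term (-1.11, limma adjusted p 0.067) and with the methods' t-test after either adjustment.

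The 2 probes of Snhg7 moved apart. The 5′ probe fell, from control values of 8.77, 9.31, 9.94 and 9.30 to silenced values of 8.24, 8.12, 8.12 and 7.40, without overlap. Its change was -1.36 (SE 0.29, limma adjusted p 0.010), and the difference was -1.09 within the first row of the slide and -1.42 within the second. With the slide row as a term the call was lost (-1.26, limma adjusted p 0.056), as it was with the methods' t-test after Bonferroni adjustment. The 3′ probe, in contrast, had control values of 11.75, 11.75, 12.13 and 11.93 and silenced values of 12.55, 12.23, 12.66 and 12.05, with a change of 0.48 (SE 0.21, limma adjusted p 0.131) that was called higher in 4 of 17 alternatives. Taken within each array, the 3′ probe minus the 5′ probe was larger in silenced than in control cultures by 1.84 on the log2 scale, without overlap (exact two-sided permutation p 0.0286, the smallest that 4 against 4 arrays allow, and 0.0571 after adjustment over 14 such differences). Among all pairs of probes for the same gene on the array, the groups failed to overlap in 41.9%. Snhg7os had a change of 0.96 (SE 0.32, limma adjusted p 0.056), from control values of 10.68, 10.85, 9.84 and 10.72 to silenced values of 11.82, 11.97, 10.83 and 11.30.

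Snhg5, a host of C/D snoRNAs, also had a pair of probes, 1175 bases apart. The 3′ probe changed by 0.28 (SE 0.33) and the 5′ probe by -0.20 (SE 0.45), and their within-array difference by 0.48, with overlap (exact permutation p 0.0857). Both were low on control replicate 3, with 11.60 against 12.70 to 13.07 on the other controls for the 3′ probe and 7.13 against 8.70 to 9.21 for the 5′ probe. Without that array the changes were -0.04 and -0.65.

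None of the remaining host probes was called. Snhg1, which carries a cluster of C/D snoRNAs, had 10.82 ± 0.15 in control and 10.17 ± 0.55 in silenced cultures (SD, n = 4 each), with no overlap between the groups and a change of -0.65 (SE 0.28, limma adjusted p 0.123). Snhg9 changed by -0.46 (SE 0.22), Snhg20, a host of a Scarna RNA, by -0.31 (SE 0.23), and Snhg3, which carries Snora73a, by -0.29 (SE 0.21). The last 2 of these take the other sign with the 75th percentile shift. Snhg12 (-0.03), Snhg10 (-0.01), Snhg8 (0.14) and Snhg6 (0.19) had changes near 0 with standard errors of 0.21 to 0.35. Snhg14, the host of the large snoRNA clusters of the Prader-Willi region, and Snhg11 were dim. Snhg14 was well above background on 1 control and 3 silenced arrays with a change of 0.68 (SE 0.44). Snhg11 was so on 1 silenced array only and changed by 0.91 (SE 0.35), with silenced replicate 4 left out because its spot was not positive and significant. Snhg11, Snhg14, Snhg7os and the 3′ probe of Snhg7 were called higher with cyclic loess.

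The host probes were also grouped by a sequence feature that the choice of members had not used. A polyadenylation signal, written AATAAA or ATTAAA and searched in the sense of the RNA, was found in 7 Snhg probes, of which 6 were tested, and in no snoRNA probe. Of all tested probes 14.9% held it, and their median change was 0.17, against -0.19 over all tested probes. The 6 tested Snhg probes with the signal (Snhg5, 3′ probe, Snhg7os, Snhg9, Snhg10, Snhg11 and Snhg14) had a median change of 0.48, from -0.46 to 0.96. The 11 without it had a median of -0.20, from -1.36 to 1.06. Among the called Snhg probes, neither Snhg18 nor Snhg4 nor the 5′ probe of Snhg7 held the signal.

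To set each snoRNA beside its host, the genes that span it in the RefSeq annotation (GRCm38.p6) were taken, on either strand. The brightest tested probe of each was used. Every one of the 13 snoRNA genes lay within at least 1 other gene. This gave 14 pairs, 12 of them with all 8 values. Snora78 was paired with Snhg9 and also with Rps2, whose probe lies on the opposite strand and so is not that of a host. Of the host probes, 1 was called, Snhg4. Differences were taken within each array, and only their change between the groups was compared, since levels of different probes are not on the same scale. Silenced replicate 4 still gave the lowest silenced difference in 10 of the 12 pairs. The test was added after the values had been seen.

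The groups did not overlap in 6 of the 12 pairs, a share near the 41.9% found for pairs of probes of the same gene, so the count sets these pairs little apart. Relative to their hosts, 4 H/ACA probes were higher in silenced cultures, Snora81 against Eif4a2 by 1.38, Snora34 against Kansl2 by 1.38, Snora74a against Snhg4 by 1.36 and Snora73a against Snhg3 by 0.90. Snora81 was not well above background on any control array, so its difference rests on dim values there. Of the C/D probes, Snord33 was lower against Rpl13a by -1.02 and Snord17 against Snx5 by -0.78. Each of the 6 had an exact two-sided permutation p of 0.0286 and 0.0571 after adjustment over 14 differences, so none passed 0.05 after adjustment.

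The pairs differed in which side moved. The probes of Snora73a and Snhg3 lie 685 bases apart, and the snoRNA minus the host probe was -0.23, -0.22, -0.63 and 0.05 on control arrays and 0.60, 0.75, 0.59 and 0.62 on silenced arrays, on the log2 scale. Silenced replicate 4 did not stand apart in this difference. For Snora74a and Snhg4 the snoRNA probe changed by 0.18 while the host fell by 1.17, and the difference was -1.58, -1.50, -2.65 and -1.41 on control arrays and -0.30, -0.79, -0.07 and -0.55 on silenced arrays. For Snord33 the host probe, 855 bases away, changed by -0.17 (SE 0.18) from 15.49 ± 0.06 to 15.32 ± 0.18 (SD, n = 4 each). For Snora34 the low value of control replicate 3 was shared by the host probe, Kansl2, with 10.55 there and 13.01 to 13.46 on the other controls, and the difference within arrays was -5.54 there against -5.34 to -5.12.

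The other pairs overlapped. Snora23 was well above background on 1 silenced array and no control array, so its difference rests on dim values. Snora23 minus Ipo7 changed by 1.34, Snora52 minus Rplp2 by 1.00, Snora78 minus Snhg9 by 0.58 and minus Rps2 by 0.39, Snord7 minus AA465934 by -0.21 and Snora47 minus Zbed3 by -0.81. The last value was -0.12 without control replicate 3, where the Zbed3 probe had 7.24 against 9.58 to 9.67 on the other controls. With all arrays that probe changed by 0.80, while another probe of Zbed3, not tested for lack of values, had means of 7.84 in control and 4.91 in silenced cultures. Of the 9 H/ACA pairs with 8 values, 8 changes were positive. These include both pairs of Snora78, which share its values, and the one with Rps2 is not a host pair. Both Scarna pairs lacked a value on an array and were not tested, with -0.43 for Scarna13 minus Snhg10 and 0.53 for Scarna6 minus Atg16l1.

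**Figure D3:**
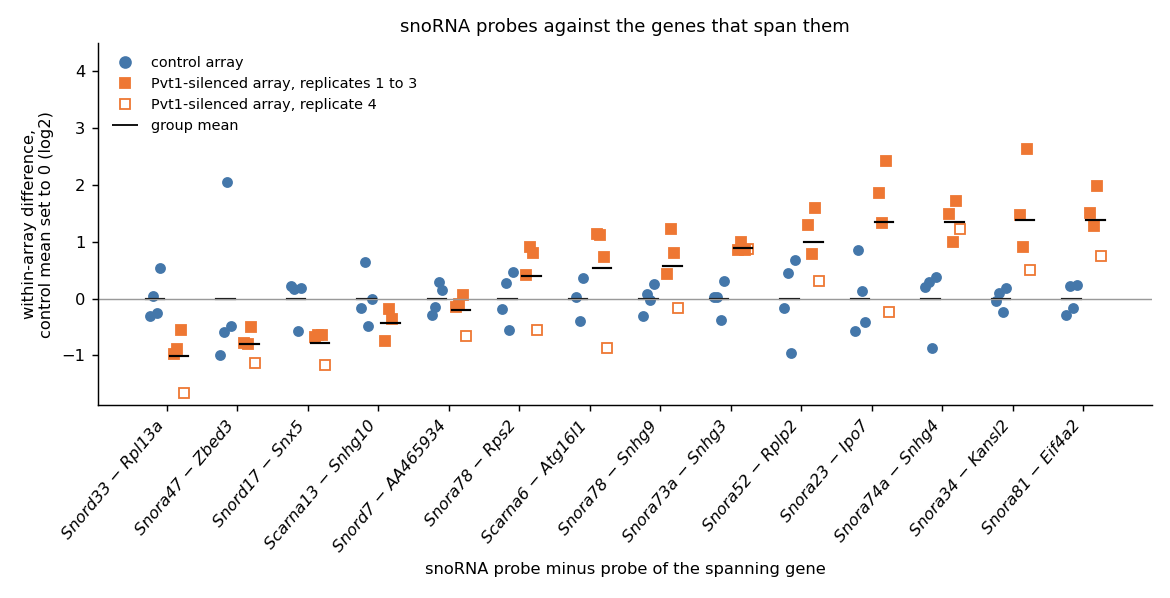
Within-array difference of log2 signals, snoRNA probe minus the probe of a gene that spans it, for 14 pairs on each array, with the mean of the control arrays set to 0. Circles are control arrays, squares silenced arrays (replicate 4 open) and bars group means. The silenced arrays lie above all control arrays for Snora81, Snora34, Snora74a and Snora73a and below them for Snord33 and Snord17.

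Genes for the making of snoRNPs, for other host genes and for the decay of host transcripts were read from the same fit, each by its brightest tested probe. Of 76 genes in 5 lists, 74 were tested, and 15 were called lower and none higher. The backgrounds were 18.4% lower and 4.79% higher among all tested probes. The median change was -0.15.

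Of the 8 core proteins of snoRNPs, 2 fell, and the median change was -0.46. With the 75th percentile shift 3 were called higher and 1 lower. Dkc1, the pseudouridine synthase of H/ACA particles, fell from 10.55 ± 0.21 to 9.74 ± 0.30 (SD, n = 4 each), a change of -0.81 (SE 0.22, limma adjusted p 0.026), and its other probe was called lower as well. Nhp2l1, which binds C/D RNAs first, fell by 0.61 (SE 0.19, limma adjusted p 0.043). The other C/D proteins were the methyltransferase Fbl (-0.55, SE 0.20, limma adjusted p 0.073) and the scaffold proteins Nop58 (-0.47, SE 0.21) and Nop56 (0.10, SE 0.22). Dimmer probes of Nop58 and Nop56 gave lower values, down to -1.54 and -1.53, and 3 of Nop58 and 1 of Nop56 were called lower. The remaining H/ACA proteins Gar1 (-0.45, SE 0.37), Nhp2 (-0.06, SE 0.20) and Nop10 (0.08, SE 0.22) were not called. Members of both kinds of particle thus stood among those lower and those not called.

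Among 14 assembly and Cajal body factors, Tgs1, which modifies the cap of some snoRNAs, was the only one called by its brightest probe, with a change of -1.03 (SE 0.23, limma adjusted p 0.013). Dimmer probes were called lower for Smn1 (3 probes, down to -2.13), Pih1d1 (1 probe, -1.02) and Znhit6 (1 probe, down to -0.88), which are named after their values had been seen. Wrap53, which brings Scarna RNAs to Cajal bodies, had a change of 0.54 without overlap (SE 0.19, limma adjusted p 0.067). It is named after its value had been seen. The median of the list was -0.24.

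Of 36 host genes not named Snhg, 34 were tested, 5 fell and none rose, with a median change of -0.06. With the 75th percentile shift 14 were called higher and 3 lower. For Eef2, Rps12, Rpl3, Rpl12 and Rpl13, named after their values had been seen, the brightest probe was not called while dimmer probes were called lower, 2 for Eef2 (-1.63 and -1.29) and 1 for each of the others (down to -0.99 for Rps12). The 4 with the largest change were the chaperone gene Hspa8 (-0.98, SE 0.22, limma adjusted p 0.014), the nucleolin gene Ncl (-0.95, SE 0.19, limma adjusted p 0.0067), Dkc1 and the chaperonin gene Tcp1 (-0.72, SE 0.22, limma adjusted p 0.041). Gas5, the non-coding host of many C/D snoRNAs, changed by -0.20 (SE 0.21), from 14.11 ± 0.09 to 13.91 ± 0.31 (SD, n = 4 each). No probe carried the name of Zfas1 or Dancr.

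Of 10 nonsense-mediated decay factors, 4 fell. Among them were Upf1, the helicase at the centre of this pathway (-1.61, SE 0.31, limma adjusted p 0.0065), its partner Upf2 (-0.91, SE 0.26, limma adjusted p 0.033) and Smg9 (-0.85, SE 0.22, limma adjusted p 0.021). Of 10 genes for intron debranching and end trimming, 4 fell as well. These were Parn, which trims 3′ ends of H/ACA RNAs (-1.27, SE 0.23, limma adjusted p 0.0052), the exonuclease genes Xrn1 (-0.87, SE 0.26, limma adjusted p 0.039) and Xrn2 (-0.77, SE 0.20, limma adjusted p 0.021), and Skiv2l2, a helicase of the nuclear exosome (-0.80, SE 0.21, limma adjusted p 0.023). The medians of these 2 lists were both -0.36. The shift to the 75th percentile left 2 genes of each called lower and called 1 decay factor higher. Of Exosc10, a nuclear exosome gene named after its values had been seen, 2 dimmer probes were called lower (-1.96 and -1.90) while the brightest changed by -0.23.

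**Figure D4:**
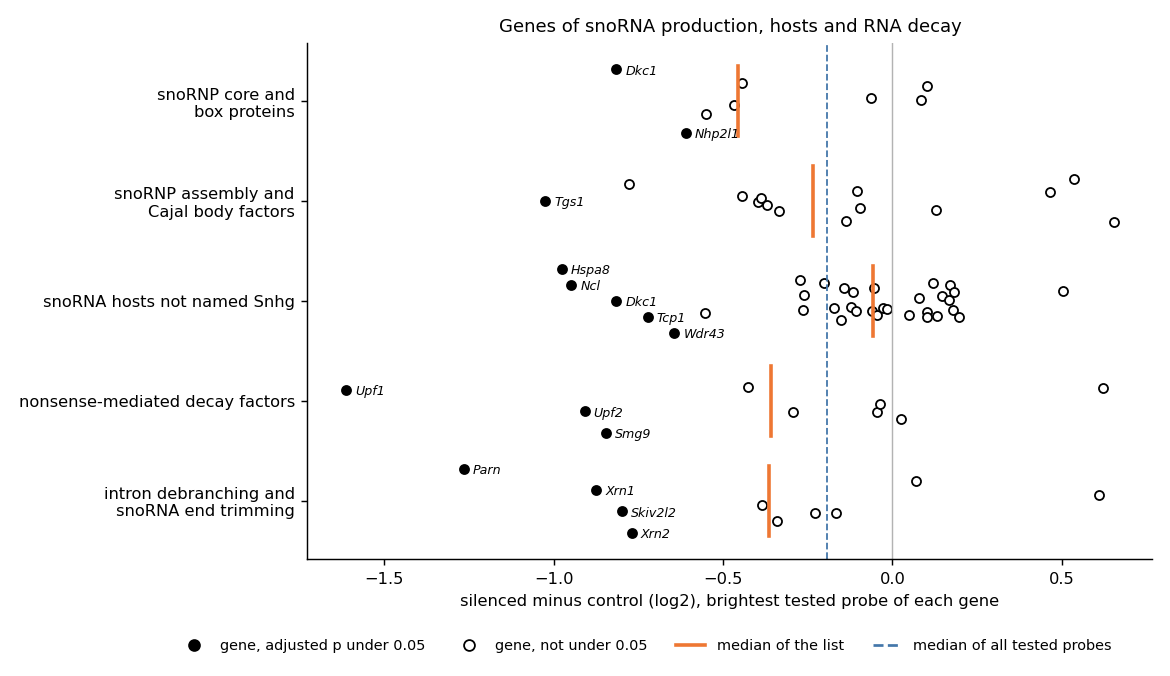
Change of each tested gene of 5 lists by its brightest probe, silenced minus control on the log2 scale. Filled symbols have a limma adjusted p under 0.05 (1 called decay factor is not drawn), orange bars are list medians over all tested genes and the dashed line is the median of all tested probes, -0.19. The called genes drawn all lie at or below -0.61.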

How the data were processed

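Gene expression of 8 cultures (4 Pvt1-silenced, 4 control) was measured on one-colour Agilent arrays on 1 slide, read in 1 scan. The deposited files give spot intensity on a linear scale, with background subtracted and spatial trends removed by Feature Extraction (version 12.0.0.7 per the file headers, 10.7.3.1 per the labels and methods), but not normalised between arrays. The authors also deposited a table of intensity values already normalised between arrays. Flags of 0 or 1 (unit: other) for signal above background and outlying spots came from the deposited files.

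Following the study's methods, spots not positive and significant were set to missing, log2 values of the processed intensities the authors deposited were quantile normalised, and spots of a probe were averaged. Control spots and outlier-flagged spots were left out. A probe needed 3 of 4 values per group to be fitted, which was done with limma 3.58.1 under R 4.3.3 (functions lmFit and eBayes), group as the only term, with Benjamini-Hochberg adjustment over 28649 probes at 0.05. The use of limma was chosen here. Where no array of a group had a probe well above background, a bound was computed and is given only if it exceeded 1. Gene names come from the array design. Coordinates are those of the files (mm9), and RNA lengths and spanning genes those of RefSeq (GRCm38.p6), where 25 of 37 member probes matched by accession. Whether probes lie in exons or introns was not analysed here.

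The members and lists were chosen with earlier results of these data known. Named were every tested Snhg probe, snoRNA probes that every array of a group measured well above background, called members, the snoRNP core proteins, Gas5, Zfas1 and Dancr, and up to 4 called genes per list by size of change, of which 1 is not reported here. The within-array differences and their exact permutation test were added later. Alternatives were the 75th percentile shift, cyclic loess, normexp (offset 50), the authors' table, no mask, a stricter mask, replicate number or slide row as a term, the fits without 1 array, the unequal-variance t-test that the study states for these arrays (the methods' t-test, with Benjamini-Hochberg or Bonferroni adjustment chosen here), and the mean of a gene's probes. Tested on simulated data of the same 2 groups and 28649 probes, the fit found 65% of 100 altered probes where the true change was 2 on the log2 scale and 22% of another 100 where it was 1, and 5 of its 92 calls were unaltered probes. No other probe was altered, a far smaller share than the 23.2% called in the data. The shares found therefore do not give the power of the comparison reported here. The labels call the cultures biological replicates, and precision is limited by how many arrays there are.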

Additional observations from a re-analysis of the deposited data

Results flagged for a closer look

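In 5 of 58 groups of 4 values among the tested members, a single array lay far from the 3 others by Dixon's criterion, which chance alone meets in about 1 group of 20. Scarna6 had 4.07 on the array of silenced replicate 4 against 6.22 to 6.44 on the other silenced arrays. The 5′ probe of Snhg7 had 7.40 on the same array against 8.12 to 8.24. With spots that were not positive and significant kept, it had 8.32 there against 7.97 to 8.18. Control replicate 3 was low for Snhg7os, with 9.84 against 10.68 to 10.85, and for Snhg9, with 11.82 against 12.43 to 12.54. For Snhg10 it was control replicate 4 that lay apart, at 9.04, where the 3 remaining control arrays gave 8.78 to 8.81.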

How the results depend on the processing

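Snord33, Snhg4, Snhg18 and the 5′ probe of Snhg7 kept their sign under every alternative that gave a value. The calls held in 12 of 18 alternatives for Snord33, 14 of 17 for Snhg4, 8 of 17 for Snhg18 and 16 of 18 for the 5′ probe of Snhg7. The table the authors deposited gave no value for Snhg4 and Snhg18. Counting all probes, 1373 were higher and 5269 lower. The 75th percentile shift gave 7075 higher and 4365 lower, cyclic loess 5416 and 5258, the normalised values of the authors' table gave 4509 and 4461, no mask 4990 and 4787, the slide row as a term 534 and 2572, the methods' t-test 566 and 2854 after Benjamini-Hochberg and 3 and 3 after Bonferroni adjustment, and leaving out 1 array 683 (control replicate 2) to 3563 (silenced replicate 4) and 2984 (control replicate 4) to 5732 (control replicate 3). Pvt1 had a change of -2.86 that missed the threshold with the t-test after Bonferroni adjustment. The causes were not tested.

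Of snoRNA probes, where none was called higher and 1 lower, the 75th percentile shift and cyclic loess called 4 higher, the authors' table and no mask 3, and the fits without 1 array 0 to 5. The count called lower was 2 with the stricter mask, 0 with the slide row as a term and with the t-test under both adjustments, and 0 to 2 without 1 array. The number of snoRNA probes well above background on all arrays was 5 to 8 when 1 array was left out. Of Snhg probes, where 1 was called higher and 2 lower, the 75th percentile shift called 8 higher, cyclic loess 5, normexp and no mask 2, the authors' table, the slide row and the t-test 0, and the fits without 1 array 0 to 2. The count called lower was 1 with the authors' table and with the t-test after Benjamini-Hochberg adjustment, and 0 with Bonferroni adjustment and with the slide row. Of the listed genes, 15 of which were called lower, the 75th percentile shift called 20 higher and 8 lower, no mask 9 higher, the values of the authors' table gave 5, cyclic loess and the t-test after Benjamini-Hochberg adjustment 4, normexp 2 and the stricter mask 1. The slide row left 5 lower, Bonferroni adjustment 0, and leaving out 1 array 5 to 15 lower and 0 to 3 higher.

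Among uncalled members the sign turned in these cases. Under the 75th percentile shift the changes were 0.28 for Snhg10, 0.43 for Snhg12, 0.019 for Snhg20, 0.18 for Snhg3, 0.097 for the 5′ probe of Snhg5, 0.30 for Snora47 and 0.071 for Snord7. Cyclic loess gave 0.060 for Scarna13, 0.32 for Snhg10, 0.15 for Snhg12, 0.17 for the 5′ probe of Snhg5, 0.32 for Snora47 and 0.15 for Snord7. The authors' table gave 0.12 for the 5′ probe of Snhg5, 0.35 for Snora47 and 0.14 for Snord7. No mask gave 0.31 for Snhg10, 0.14 for Snhg12, 0.12 for the 5′ probe of Snhg5, 0.34 for Snora47 and 0.12 for Snord7. The slide row gave 0.0012 for Snhg10 and -0.0044 for Snora78, and the stricter mask 0.20 for Snora47. Without 1 array the ranges were -0.28 to 0.17 for Scarna13, -0.25 to 0.36 for Snhg10, -0.17 to 0.15 for Snhg12, -0.042 to 0.45 for the 3′ and -0.65 to 0.055 for the 5′ probe of Snhg5, -0.22 to 0.30 for Snora47, -0.11 to 0.43 for Snora74a, -0.075 to 0.42 for Snora78 and -0.38 to 0.018 for Snord7.

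The groups share replicate numbers 1 to 4. Same-numbered arrays deviated from their group means with correlations of -0.04, 0.19, 0.22 and 0.06, and only numbers 2 and 3 had their best partner in their own number, so the numbers did not pair the arrays. With the replicate block, 1023 probes were higher and 3994 lower, no snoRNA probe was called lower, 2 Snhg probes were called higher, and 7 listed genes were lower. Of the snoRNA probes, 5 of 13 were well above background on every array, and the others had at least 1 array where the signal was not.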
